A study of Mus musculus with 12 samples.

Results

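Untreated mouse embryos labelled p53 knockout were compared with untreated embryos labelled p53 wild type, over all genes with enough transcript to be measured. The comparison rests on 4 libraries, 2 for each label, out of 12 in the series. It covers 15535 of 53647 gene IDs, those with at least 1 TPM in at least 2 of the 12 libraries. TPM are transcript abundances corrected for transcript length and scaled to a fixed sum in each library. The groups were whole embryos at embryonic day 9.5 of the genotype p53 -/- without treatment (KO, numbered 1 and 2) and whole embryos of the same stage of the genotype p53 +/+ without treatment (WT, numbered 1 and 2). The other 8 libraries carry the same labels and come from embryos irradiated with 30 Gy, taken after 1 h or 3 h. The labels state neither the strain, the knockout allele and the number of embryos per library nor whether libraries of a group came from separate litters. The p-values measure the spread between libraries of a group, taken over all 12 libraries, 8 of them irradiated. The 2 untreated libraries of each label differ in sex, as given below, so they came from different embryos. How far the spread stands for separate litters is not known, and part of it may be technical.

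Before the results, 3 facts about the libraries bear on how they can be read. The transcript of Trp53, the gene for p53, did not follow the label. It stood at 265.13 and 79.13 TPM in the KO libraries, against 113.96 and 211.19 TPM in the WT libraries. The highest and the lowest of the 4 values both belong to libraries labelled knockout. Which part of the gene the allele removes is not given, so a transcript level does not check the genotype. At 3 h after irradiation Cdkn1a, the cell-cycle inhibitor p21 that p53 induces, was higher in the libraries labelled knockout by 5.96 on the log2 scale, which goes against the label. The mean log2(TPM + 1) of 20 p53 targets of arrest and feedback was 6.08 and 6.28 in the 3 h KO libraries, against 3.54 and 3.73 in the 3 h WT libraries. All groups are therefore named by their labels only, and if the labels were exchanged every direction given here would turn round. The number of a library, 1 or 2, marks the larger split. Of the variation among the 4 untreated libraries, 61.0% lay between numbers 1 and 2, 19.7% between the labels and 19.3% in the label-by-number term. In the untreated libraries the number also coincides with the sex of the embryos. Xist, the RNA that silences an X chromosome in females, stood at 0.00 and 51.17 TPM in KO libraries 1 and 2, against 0.02 and 52.98 TPM in WT libraries 1 and 2. The Y-linked gene Eif2s3y showed the reverse, with 36.96 and 0.00 TPM in KO libraries 1 and 2, against 34.36 and 0.00 TPM in WT libraries 1 and 2. Number and sex cannot be told apart here, but each label holds 1 library of each kind. In the irradiated libraries sex follows neither number nor label: Xist was at 46.70 and 0.00 TPM in the 1 h KO libraries, against 0.01 TPM in both 1 h WT libraries, and at 108.03 and 96.89 TPM in the 3 h KO libraries, against 135.36 and 0.01 TPM in the 3 h WT libraries.

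Hox genes encode transcription factors that give cells along the head-to-tail axis their positional identity. They lie in 4 clusters, a to d, and are numbered by paralog group: genes of low number are switched on early and reach far forward, and genes of high number are switched on later and stay towards the tail. CDX2, a transcription factor of the tailbud, activates central and posterior Hox genes, and its sites contain the letters TTTATG.

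Promoter windows are shown for the 3 Hox genes with the largest label differences among those with a window. The windows hold 300 bases around the transcription start, 5′ to 3′ on the gene's strand, from RefSeq on build GRCm38.p6. Capitals mark TTTATG or its reverse complement CATAAA. Hoxa9 lies at chr6:52227321-52227620 on the minus strand, Hoxa7 at chr6:52218524-52218823 on the minus strand and Hoxd8 at chr2:74704365-74704664 on the plus strand.
Hoxa9: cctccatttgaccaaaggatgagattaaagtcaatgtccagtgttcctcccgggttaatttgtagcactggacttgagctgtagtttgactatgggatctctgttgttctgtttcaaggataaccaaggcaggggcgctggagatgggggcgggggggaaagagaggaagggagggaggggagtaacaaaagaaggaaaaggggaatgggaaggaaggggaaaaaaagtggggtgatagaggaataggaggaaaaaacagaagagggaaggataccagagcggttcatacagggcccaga
Hoxa7: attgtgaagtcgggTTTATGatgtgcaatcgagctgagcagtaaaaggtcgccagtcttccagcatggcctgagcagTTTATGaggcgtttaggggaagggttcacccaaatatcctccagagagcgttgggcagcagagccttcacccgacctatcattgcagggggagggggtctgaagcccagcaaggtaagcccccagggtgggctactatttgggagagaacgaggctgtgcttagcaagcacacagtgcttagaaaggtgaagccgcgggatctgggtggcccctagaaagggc
Hoxd8: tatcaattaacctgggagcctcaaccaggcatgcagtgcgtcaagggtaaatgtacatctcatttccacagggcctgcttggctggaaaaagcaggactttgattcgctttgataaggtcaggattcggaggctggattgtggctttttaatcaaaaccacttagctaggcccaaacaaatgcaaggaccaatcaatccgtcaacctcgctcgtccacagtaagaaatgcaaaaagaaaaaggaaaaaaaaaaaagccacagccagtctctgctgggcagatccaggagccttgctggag
The Hoxa7 window holds the motif at bases 15 and 78, and the Hoxa9 and Hoxd8 windows do not hold these letters. Of the 33 measured Hox genes, 19 had a window, and Hoxc6, Hoxb9 and Hoxc8 were not among them. The motif stood in 3 of 10 genes of paralog groups 6 to 13 and in 2 of 9 genes of groups 1 to 5. A gene was counted if any of its windows held the motif, and Hoxa10 and Hoxd11 had more than a single window. Counted by window and not by gene, the share was 11.9% of all 32851 windows. A match is a description of letters, not a site in use.

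The genes called as different between the labels were central and posterior Hox genes, all lower in the KO libraries. Adding up the TPM of all 24 Hox genes of paralog groups 6 to 13 gave 35.0 and 47.5 TPM in the KO libraries, against 155.4 and 125.0 TPM in the WT libraries. The same sum over the 15 genes of groups 1 to 5 gave 187.4 and 168.7 TPM in the KO libraries, against 209.9 and 183.5 TPM in the WT libraries. Both sums were lower in the KO library within each number, by a much smaller part in groups 1 to 5. The division between groups 5 and 6 was placed after the values were seen and carries no test. In bulk tissue, fewer cells that express a gene and less RNA per cell cannot be told apart.

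A model fitted across all genes (limma on log2(TPM + 1), Benjamini-Hochberg adjustment) called 3 genes at an adjusted p under 0.05, which is 0.0193% of the genes tested. All were Hox genes and all fell in the KO libraries, and 0 genes were called higher. At an unadjusted p under 0.05 stood 116 genes lower, 0.747% of those tested, and 70 higher, 0.451%. With the replicate number as a block, 2 genes were called, 0.0129%.

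Hoxc6, which marks the level of the neck-to-trunk transition, had 2.26 and 2.56 TPM in the KO libraries, against 11.18 and 11.26 TPM in the WT libraries. The values within each label nearly coincided and the labels were far apart. The log2 difference was -1.84 (SE 0.17, adjusted p = 0.0368).

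Hoxb9, a gene of trunk and tail identity and the most abundant posterior Hox transcript here, had 10.61 and 12.32 TPM in the KO libraries, against 53.23 and 41.68 TPM in the WT libraries. Both KO libraries lay below both WT libraries, with a log2 difference of -1.95 (SE 0.21, adjusted p = 0.0498).

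Hoxc8, a thoracic gene, had 0.90 and 0.83 TPM in the KO libraries, against 11.77 and 6.54 TPM in the WT libraries. The KO values were below the level used as the minimum for testing, and the WT values were above it. The log2 difference was -2.40 (SE 0.26, adjusted p = 0.0498). With the replicate block this gene missed the threshold (adjusted p = 0.0527), while Hoxc6 (0.0069) and Hoxb9 (0.0291) kept their calls.

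The calls depended on single libraries. The log2 difference of these 3 genes lay between -3.20 and -1.78 over 21 alternatives, but most of these could not move it. Only the pseudocount, the other scalings and leaving out an untreated library could. The other filters, the fit without trend, the block and leaving out irradiated libraries keep the difference by construction. Leaving out any 1 of the 12 libraries ended the call of Hoxb9 (adjusted p between 0.1 and 0.495) and of Hoxc8 (between 0.0749 and 0.468). Hoxc6 kept its call without WT 1 h library 1 or 2 and lost it without any of the other 10 libraries, with adjusted p between 0.0393 and 0.341 over all 12 fits.

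**Figure D1:**
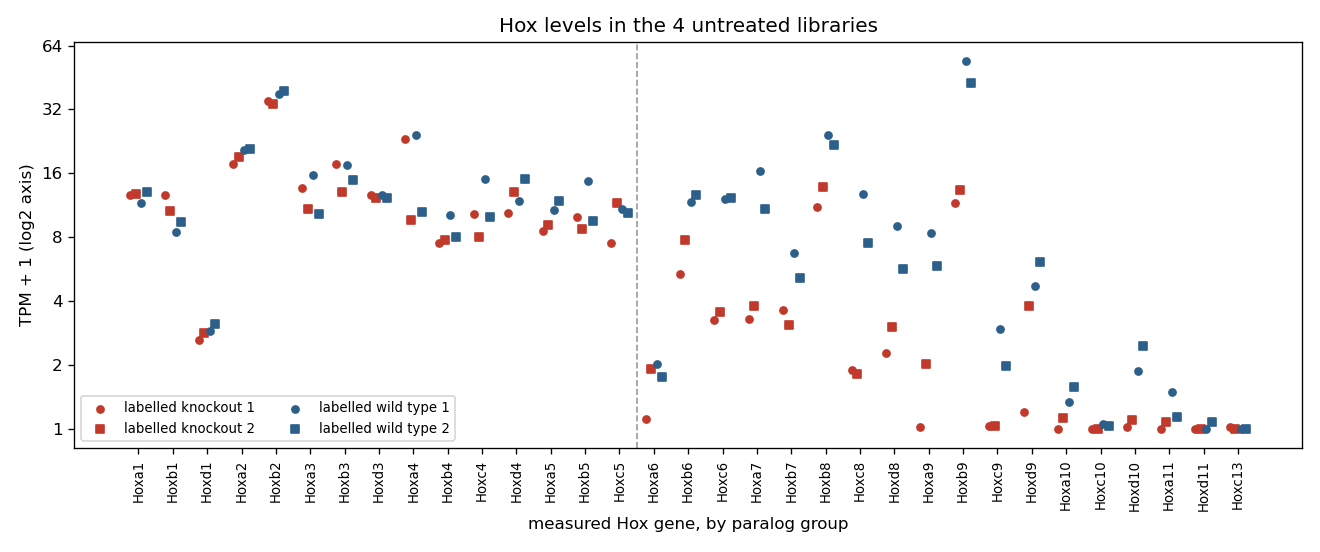
TPM + 1 on a log2 axis for the 33 measured Hox genes in order of paralog group, with 1 point per untreated library (red, labelled knockout; blue, labelled wild type; circles, number 1; squares, number 2). The dashed line separates groups 1 to 5 from groups 6 to 13. To its left red lies below blue for 5 of 15 genes and above it for 1. To its right red lies below blue for 15 of 18 genes and above it for 0. Over all tested genes the shares are 9.11% below and 8.8% above. Hoxc8, for example, is at 0.90 and 0.83 TPM against 11.77 and 6.54 TPM.

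The gene just outside the threshold was Hoxa7, which had 2.31 and 2.79 TPM in the KO libraries, against 15.35 and 9.94 TPM in the WT libraries. Its log2 difference was -1.92 (SE 0.22, adjusted p = 0.0644). Next came AI197445, a clone-like entry with a log2 difference of -1.23 (adjusted p = 0.177), and then Hoxa9. Hoxa9 was at 0.03 and 1.04 TPM in the KO libraries, against 7.41 and 4.90 TPM in the WT libraries, with a log2 difference of -2.28 (SE 0.34, adjusted p = 0.265). For both Hox genes the labels did not overlap.

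Among the other genes of groups 6 to 9, which pattern the trunk, Hoxb8 had 10.11 and 12.87 TPM in the KO libraries, against 23.33 and 20.85 TPM in the WT libraries (log2 difference -0.89). Hoxb6 had 4.41 and 6.77 TPM in the KO libraries, against 10.76 and 11.72 TPM in the WT libraries (log2 difference -0.92). Hoxd8 had 1.28 and 2.02 TPM in the KO libraries, against 8.07 and 4.70 TPM in the WT libraries (log2 difference -1.45). None of these was called, and in all 3 the KO libraries lay below the WT libraries. Hoxb7, at 2.66 and 2.08 TPM in the KO libraries, against 5.73 and 4.15 TPM in the WT libraries, showed the same order. Hoxc9 was near the floor at 0.04 TPM in both KO libraries, against 1.96 and 0.99 TPM in the WT libraries. Hoxd9 had 0.20 and 2.82 TPM in the KO libraries, against 3.71 and 5.13 TPM in the WT libraries. Hoxd10, a more posterior gene, had 0.03 and 0.10 TPM in the KO libraries, against 0.88 and 1.47 TPM in the WT libraries. The KO values of both were the lower ones. Among the 12 genes of groups 6 to 9 Hoxa6 was the exception, since KO library 2, at 0.93 TPM, lay between the WT libraries at 1.04 and 0.77 TPM.

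Counted by group, both KO libraries lay below both WT libraries for 15 of 18 measured genes of paralog groups 6 to 13 and above them for 0. Over all tested genes 9.11% lay below in this way and 8.8% above, the shares against which the counts of lists below are to be read. The median log2 difference was -0.97 in these 18 genes, against -0.01 over all tested genes. In groups 1 to 5 the counts were 5 lower and 1 higher of 15, with a median of -0.15. By paralog group the median was -0.34 in group 5, -0.92 in group 6, -1.36 in group 7, -1.45 in group 8 and -1.64 in group 9, and it was -0.46 in group 10 and -0.19 in group 11. Genes of groups 10 to 13 were at or below 1.47 TPM in all 4 untreated libraries, where log2(TPM + 1) understates a difference.

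**Figure D2:**
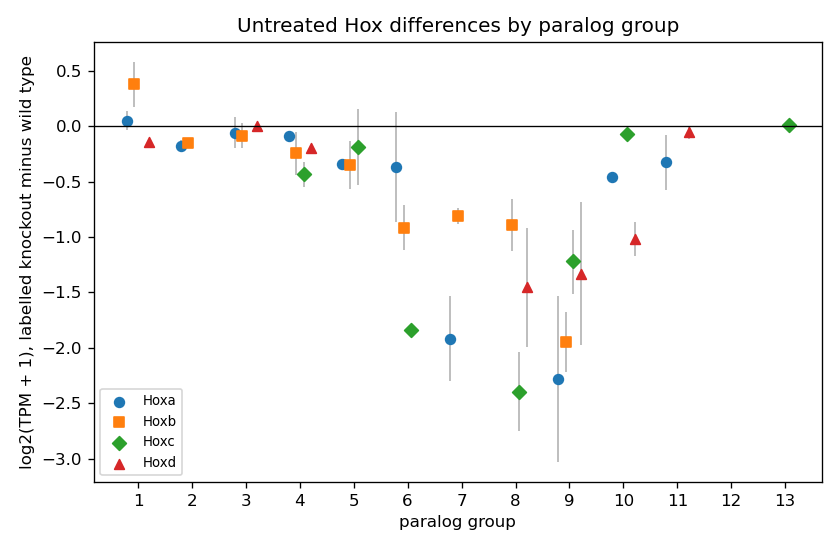
Log2(TPM + 1) difference, labelled knockout minus labelled wild type, for each measured Hox gene by paralog group and cluster (point), with a grey line between the differences within number 1 and within number 2. Points stay near 0 in groups 1 to 3, reach -2.40 (Hoxc8) and -2.28 (Hoxa9) in groups 8 and 9, and return towards 0 in groups 10 to 13, whose levels are low.

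The lower levels were found in all 4 clusters. Over groups 6 to 13 the KO libraries lay below the WT libraries for 4 of 5 measured Hoxa genes, 4 of 4 Hoxb genes, 4 of 5 Hoxc genes and 3 of 4 Hoxd genes. The difference was found within each number, with a median of -1.13 between the libraries numbered 1 and of -0.73 between those numbered 2. Genes of the same cluster are neighbours in the genome and some transcripts overlap, so that reads of neighbours may be shared and they are not independent measurements.

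Anterior Hox genes, which pattern the hindbrain and neck, had smaller differences, and 0 of the 15 genes of groups 1 to 5 were called. Hoxb1, a hindbrain gene, was the one gene of groups 1 to 5 with both KO libraries above the WT libraries, at 11.70 and 9.65 TPM in the KO libraries, against 7.52 and 8.42 TPM in the WT libraries (log2 difference 0.38, unadjusted p = 0.0909). Hoxb2 had 33.91 and 33.05 TPM in the KO libraries, against 36.85 and 37.94 TPM in the WT libraries. Hoxa5, next to the trunk genes in order, had 7.60 and 8.20 TPM in the KO libraries, against 9.72 and 10.83 TPM in the WT libraries. Hoxd3 had 11.62 and 11.25 TPM in the KO libraries, against 11.61 and 11.30 TPM in the WT libraries. On the log2(TPM + 1) scale the differences of Hoxb1 and Hoxa5 were similar in size to that of Hoxa6 among the trunk genes. They were smaller than those of the called genes. Hoxa6 was at or below 1.04 TPM in the untreated libraries, where this scale understates a difference. With a pseudocount of 0.1 it stood at -1.06, against -0.374 for Hoxa5 and 0.413 for Hoxb1.

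Set beside the irradiated libraries, the untreated KO libraries had the lowest summed TPM, although not the lowest level of every gene. Over groups 6 to 13 the summed TPM was 35.0 and 47.5 in the untreated KO libraries. At 1 h it was 178.0 and 220.2 in the KO libraries, against 199.0 and 217.7 in the WT libraries. At 3 h it was 62.1 and 61.9 in the KO libraries, against 129.8 and 142.4 in the WT libraries. By this sum the untreated KO libraries were the lowest of all 12, and the 3 h KO libraries came next. Some genes were lower at 3 h. Hoxb8 had 6.01 and 5.59 TPM in the 3 h KO libraries, against 10.11 and 12.87 TPM in the untreated KO libraries. Hoxb6 had 3.36 and 2.71 TPM in the 3 h KO libraries, against 4.41 and 6.77 TPM in the untreated KO libraries. Of the 18 measured genes, 7 were lower in both untreated KO libraries than in each of the other 10 libraries, against 0.895% of all tested genes.

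The label difference in untreated embryos was compared with that at each time after irradiation. Against 1 h, 1 gene of all tested was called (0.00644%), and it was Cdkn1a. That count was 8 with the replicate block and ran from 0 to 4 when single libraries were left out. Hoxc6 differed by -2.10 between the label difference of untreated embryos and that at 1 h (adjusted p = 0.0693, and 0.0085 with the replicate block). Against 3 h, 536 genes were called (3.45%), among them Hoxc6 at -1.98 (adjusted p = 0.00299). That count was 2078 with the replicate block and lower when any single library was left out. At 3 h Hoxc6 had 12.12 and 12.27 TPM in the KO libraries, against 10.59 and 11.47 TPM in the WT libraries, so the labels lay close together. Hoxb9 at 3 h was low again in the KO libraries, at 9.64 and 12.71 TPM, against 34.89 and 42.80 TPM in the WT libraries. Its label difference was not called as changed (adjusted p = 0.82). These comparisons share the untreated libraries, and the labels differ in the sex of their libraries at both later times.

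**Figure D3:**
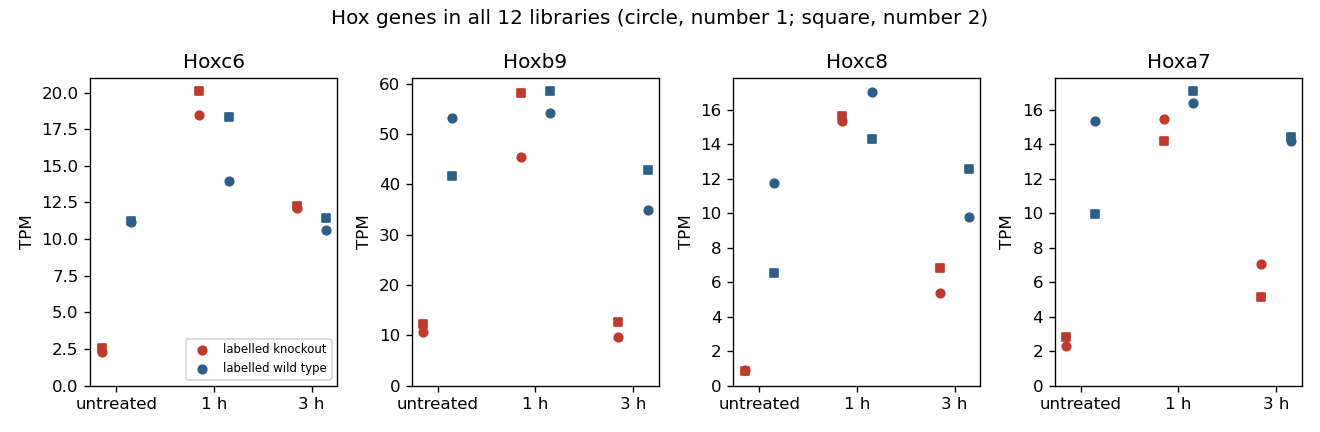
TPM of Hoxc6, Hoxb9, Hoxc8 and Hoxa7 in all 12 libraries by time, with the libraries labelled knockout (red) left of those labelled wild type (blue) and circles and squares for numbers 1 and 2. The untreated KO libraries are the lowest for Hoxc6 (2.26 and 2.56 TPM), Hoxc8 and Hoxa7, while Hoxb9 is as low in the 3 h KO libraries (9.64 and 12.71 TPM) as in the untreated ones.

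Tailbud genes act with or upstream of the trunk Hox genes, and 0 of them were called. Cdx2, the tailbud factor named above, had 0.57 and 0.34 TPM in the KO libraries, against 1.43 and 1.11 TPM in the WT libraries (log2 difference -0.64, unadjusted p = 0.0178). It did not pass adjustment. Of 19 measured tailbud and presomitic mesoderm genes, the KO libraries lay below the WT libraries for 5 (9.11% of all tested genes) and above them for 2 (8.8% of all tested genes), with a median of -0.03. The Notch ligand gene Dll1 had 14.06 and 19.88 TPM in the KO libraries, against 23.83 and 23.12 TPM in the WT libraries. Sp5, a target of Wnt signalling, went the other way at 12.84 and 9.24 TPM in the KO libraries, against 8.48 and 7.33 TPM in the WT libraries.

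Somite genes had a median slightly below 0. The KO libraries lay below the WT libraries for 8 of 16 and above them for 0, against 9.11% and 8.8% of all tested genes, with a median of -0.21, and 0 of the 16 were called. Uncx, which marks the posterior part of each somite, had 1.75 and 1.87 TPM in the KO libraries, against 4.02 and 3.58 TPM in the WT libraries (log2 difference -0.77). Meox2, a somite transcription factor, had 7.82 and 5.89 TPM in the KO libraries, against 9.90 and 8.85 TPM in the WT libraries.

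Genes of the head had a median slightly above 0, although it was -0.03 without KO library 2. Of 26 forebrain and midbrain genes, the KO libraries lay above the WT libraries for 7 and below them for 3, against 8.8% and 9.11% of all tested genes, with a median of 0.15, and 0 were called. Otx2, which specifies forebrain and midbrain, had 47.61 and 53.53 TPM in the KO libraries, against 39.98 and 37.55 TPM in the WT libraries (log2 difference 0.37, unadjusted p = 0.0342). Six3, a forebrain transcription factor gene, had a log2 difference of 0.31. In the hindbrain list of 12 genes 2 lay above, Fgf3 and Egr2, against 8.8% of all tested genes. Fgf3, a growth factor of the hindbrain, had 4.26 and 3.45 TPM in the KO libraries, against 1.45 and 2.29 TPM in the WT libraries. Egr2, which marks a pair of hindbrain segments, had 6.27 and 1.73 TPM in the KO libraries, against 1.29 and 0.72 TPM in the WT libraries. Both sets of values were apart, but Egr2 varied more between the KO libraries than between the WT libraries.

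For markers of blood, neurons and heart the medians were further from 0 between the libraries numbered 1 than between those numbered 2. Without KO library 1 the erythroid median was -0.09 and the neuron median 0.01. Among 17 primitive erythroid genes the KO libraries lay below the WT libraries for 7, against 9.11% of all tested genes, and the median was -0.70 in all, -1.19 within number 1 and -0.16 within number 2. Hba-x, an embryonic globin, had 1213 and 2057 TPM in the KO libraries, against 3392 and 2367 TPM in the WT libraries. Epor, the erythropoietin receptor gene, had 2.16 and 3.55 TPM in the KO libraries, against 5.00 and 5.34 TPM in the WT libraries. Among 26 neuron genes 8 lay below and 0 above, against 9.11% and 8.8% of all tested genes, with a median of -0.31 in all, -0.56 within number 1 and -0.02 within number 2. Neurod1, a factor of neuronal differentiation, had 1.71 and 5.18 TPM in the KO libraries, against 5.94 and 5.53 TPM in the WT libraries, and the low value was that of KO library 1. Among 20 cardiac muscle genes 7 lay above and 1 below, against 8.8% and 9.11% of all tested genes, with a median of 0.25. Myl7, an atrial myosin light chain, had 491.19 and 391.58 TPM in the KO libraries, against 326.13 and 347.44 TPM in the WT libraries. No gene of these 3 lists was called.

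Markers of tissue outside the embryo proper gave 3 patterns. The mean log2(TPM + 1) of 19 visceral endoderm and yolk sac genes was 1.89 and 3.32 in the KO libraries, against 2.92 and 2.25 in the WT libraries. Afp, which yolk sac endoderm secretes and which was chosen after its values were seen, had 3.97 and 53.72 TPM in the KO libraries, against 27.56 and 19.38 TPM in the WT libraries. The list was lowest in KO library 1 and highest in KO library 2, so it did not follow the label as the Hox genes did. The mean of 11 measured trophoblast genes was 3.74 and 3.62 in the KO libraries, against 3.73 and 3.64 in the WT libraries, so it hardly varied. The decidua list had 3 of 7 genes measured. Its mean was 3.82 and 3.70 in the KO libraries, against 4.06 and 4.26 in the WT libraries. Of the 3 genes only 1, Dcn, had both KO libraries below both WT libraries (9.11% of all tested genes). Hand2 and Cryab overlapped between the labels. Cryab had 30.94 and 31.03 TPM in the KO libraries, against 25.84 and 31.56 TPM in the WT libraries. Dcn, a matrix proteoglycan gene of connective tissue, had 2.90 and 3.26 TPM in the KO libraries, against 5.00 and 8.76 TPM in the WT libraries, while Prl8a2, a defining decidual gene, was listed at 0 in all 4. The part of these tissues in the other results was not tested.

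**Figure D4:**
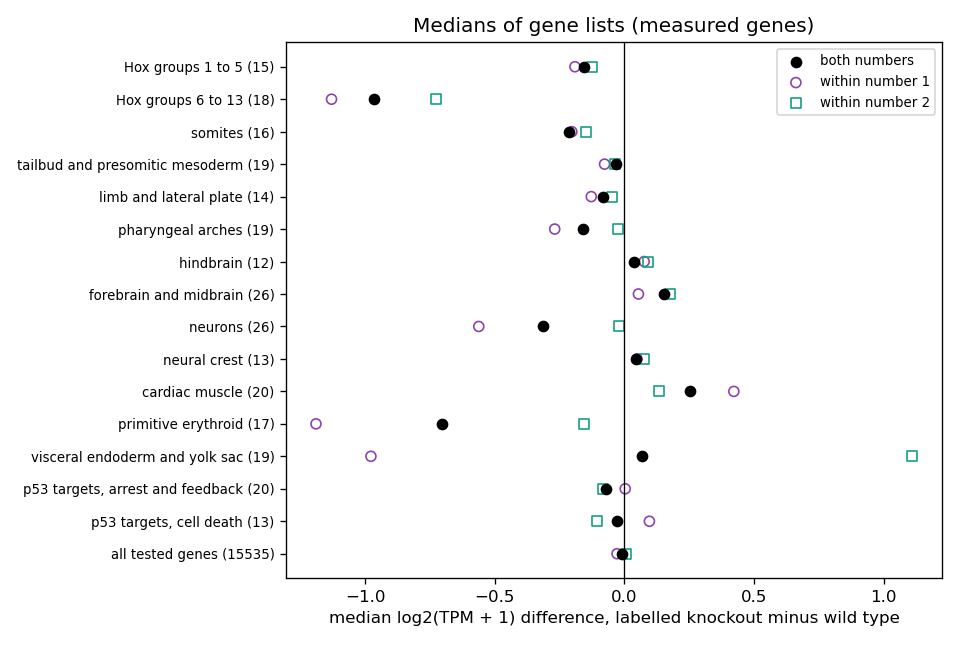
Median log2(TPM + 1) difference, labelled knockout minus labelled wild type, for 16 rows of gene lists, with the number of measured genes in brackets (filled, both numbers; open circle, within number 1; open square, within number 2). Hox groups 6 to 13 lie at -1.13 and -0.73 within the numbers, the primitive erythroid list at -1.19 and -0.16, and the visceral endoderm list on opposite sides of 0 at -0.98 and 1.11.

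Of the p53 targets, 0 were called between the labels without irradiation. The 4 genes of the series title, which concern cell-cycle arrest, were compared first. Cdkn1a had 6.88 and 5.38 TPM in the KO libraries, against 5.91 and 6.60 TPM in the WT libraries. Ccng1, encoding cyclin G1, had 18.78 and 12.35 TPM in the KO libraries, against 10.09 and 29.24 TPM in the WT libraries. Both genes overlapped between the labels. Foxo3, a forkhead transcription factor gene, had 10.97 and 11.89 TPM in the KO libraries, against 12.31 and 13.52 TPM in the WT libraries. Fbxw7, a ubiquitin ligase subunit gene, had 13.95 and 12.92 TPM in the KO libraries, against 12.09 and 13.12 TPM in the WT libraries. Of the 4 title genes only Foxo3 had both KO libraries below both WT libraries (9.11% of all tested genes), and 0 had both above. None of the 4 was called, and their log2 differences lay between -0.17 and 0.09. Of 20 arrest and feedback targets the KO libraries lay below the WT libraries for 0 and above them for 2, against 9.11% and 8.8% of all tested genes. The difference was below 0 for 16 of the 20, with a median of -0.07. Of 13 measured cell death targets 1 lay below and 0 above, near or under the same shares, with a median of -0.03. Of 18 repair and metabolism targets 4 lay below and 3 above, both over the same shares. Their median was also -0.03. The adjusted p of a gene that is not called does not show that the labels were alike.

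Outside the Hox clusters the model with all 12 libraries and 15535 genes called no gene. The genes with the smallest unadjusted p, at a mean of at least 5 TPM and with no overlap between labels, are given as not called. Clone-like and unnamed entries were left out of these. Some of them had smaller unadjusted p in limma, such as AI197445, lower (5.71e-05), and Gm3150, higher (0.000532). Higher in the KO libraries was Card19, at 12.20 and 13.64 TPM, against 7.82 and 9.02 TPM in the WT libraries (log2 difference 0.56, unadjusted p = 0.00492). Cnn1, a smooth muscle actin-binding protein gene, had 26.53 and 22.05 TPM in the KO libraries, against 17.57 and 14.73 TPM in the WT libraries. Ndufa4l2, a mitochondrial gene induced by low oxygen, had 12.05 and 4.22 TPM in the KO libraries, against 2.45 and 1.71 TPM in the WT libraries. Prss36, Rexo5, Atf3, Cldn3, ccdc198, Cacna2d2 and Irs4 completed the 10, with log2 differences between 0.56 (Atf3) and 1.13 (ccdc198). Lower in the KO libraries was Cpt1b, an enzyme gene of fatty acid transport into mitochondria, at 5.43 and 6.42 TPM, against 13.39 and 8.07 TPM in the WT libraries (log2 difference -0.73, unadjusted p = 0.0112). Ackr3, a chemokine receptor gene, had 11.54 and 12.01 TPM in the KO libraries, against 16.52 and 14.83 TPM in the WT libraries. Islr and Dnajc4 followed with log2 differences of -0.51 and -0.69.

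In all, label means lay at least 2-fold apart for 134 genes on the log2(TPM + 1) scale, 58 higher and 76 lower, and 80 of the 134 were clone-like or unnamed entries. Numbers lay at least 2-fold apart for 464 genes. Libraries of the same number and different label correlated across genes at 0.984 for number 1 and 0.987 for number 2. Libraries of the same label correlated at 0.969 for KO and 0.973 for WT, so the nearest library of each was the one with its own number and the other label.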

How the data were processed

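Polyadenylated RNA of whole embryos was sequenced as paired reads of 75 bp, per the labels' protocols. The authors deposited TPM, which sum to between 999999.1 and 1000000.8 per library and keep no read depth, so the depth is unknown and no counting error is given. Per the submitters' processing notes the tools were RSEM 1.3.3, STAR 2.7.3a, R 4.3.3, HTSeq 0.12.3 and DESeq2 1.42.1, with no role stated, and the build was GRCm39. The sources used here give no strand setting or annotation release. Between 13724 and 14357 genes reached 1 TPM in a library. Symbols matched 52093 IDs (97.1%).

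The values log2(TPM + 1) of all 12 libraries were modelled with limma 3.58.1 (R 4.3.3), with a mean per group, a trended spread and 6 residual degrees of freedom (5 with the replicate block), two-sided, with Benjamini-Hochberg adjustment over all 15535 genes. The script was checked on simulated data. Figures used Python 3.11.15 and matplotlib 3.10.9. Deviations from the group means were shared by same-numbered libraries (correlation 0.327 to 0.796 in all 15 pairs of groups, 0.502 between the untreated groups), so a fit with the number as a block was set beside the first fit, which has no block and gives the calls and p-values unless the block is named. The 46 gene lists, the comparison and its members were chosen with earlier results of these data known. Named genes were Trp53 and the title genes, the 10 highest and 10 lowest as stated, members of the lists with the smallest p, and Hox genes. The result of 1 single gene of these lists is not reported here. The alternatives were a pseudocount of 0.1, other filters, other scalings, fewer libraries, no trend and the replicate block.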

Additional observations from a re-analysis of the deposited data

Results flagged for a closer look

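The genes below had a label difference in untreated embryos that differed from the label difference at another time, by the test of that difference in limma (adjusted p under 0.05). Values are log2 differences, untreated minus later. Against 1 h, Cdkn1a stood at -3.31. Against 3 h, the title genes stood at -6.00 (Cdkn1a), -5.75 (Ccng1), -1.91 (Foxo3) and -1.48 (Fbxw7). Among Hox genes, Hoxc6 stood at -1.98, Hoxb1 at 1.76, Hoxb2 at 1.29 and Hoxa2 at 1.74. Among the genes with the smallest p without irradiation, Atf3 stood at -1.68, Cldn3 at 1.52, Irs4 at 2.26, Cpt1b at -1.68 and Islr at -1.42. Among head, neuron and somite genes, Meox2 stood at 1.56, Otx2 at 1.67, Six3 at 2.20 and Neurog2 at 1.69.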

How the results depend on the processing

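The 3 calls, all lower, became 0 with only the 4 untreated libraries or without both 1 h libraries numbered 2, and 1 without the trend of the spread. Without the filter on low values 4 genes were called, all lower. Hoxc6 was among them (adjusted p = 0.0218 in limma), but Hoxb9 (0.053) and Hoxc8 (0.0581) were not. The genes called therefore changed with the filter, and not only their count. With the replicate block they were 2. Leaving out 1 library at a time, including the 8 irradiated ones, a choice made after seeing the data, gave 0 to 2 calls, of which 0 to 1 higher and 0 to 1 lower. The fewer residual degrees of freedom belong to these fits by construction. The count against 1 h was 1, 3 with median-of-ratios size factors, 8 with the replicate block, and 0 to 4 without single libraries. The count against 3 h was 536, 2078 with the replicate block, and 224 to 308 without single libraries. Hoxc6 lay between -2.18 and -1.78, Hoxb9 between -2.12 and -1.78, and Hoxc8 between -3.20 and -2.02 over all 21 alternatives. Only the pseudocount, the other scalings and leaving out an untreated library could move these values, and the other alternatives keep them by construction. Some small differences changed sign. Hoxd3 became 0.0185 with median-of-ratios size factors and 0.0142 with quantile normalization, and ran from -0.0238 to 0.0191 without single libraries. Without single libraries Trp53 ran from -0.963 to 0.769, Cdkn1a from -0.184 to 0.121, Ccng1 from -0.896 to 0.551, Hoxa6 from -0.763 to 0.0224 and Afp from -2.28 to 1.18. The cause was not tested.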

Other observations

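Across all 3 times, 4 genes (0.0257% of those tested) were higher in all 6 libraries labelled knockout than in all 6 labelled wild type, and 14 (0.0901%) were lower. These were chosen after their values were seen and carry no test. The counts were not set against the share that ordering alone would give, so they are no sign of lasting label differences. None of these genes was called between the labels without irradiation. Trp63, which encodes the p53 relative p63, ranged from 3.94 to 4.52 TPM in the KO libraries, against 4.75 to 5.96 TPM in the WT libraries. Ackr3 ranged from 9.26 to 12.0 TPM in the KO libraries, against 13.2 to 16.5 TPM in the WT libraries. Cox10, an assembly factor gene of cytochrome oxidase, ranged from 14.09 to 18.07 TPM in the KO libraries, against 18.11 to 27.10 TPM in the WT libraries, so its labels were barely apart.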
